A study of Mus musculus with 27 samples.

Results

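The genes described here are 9 neural cell adhesion genes: Ncam1, Cntn1, Lrrtm1, Nlgn1, Cadm1, Celsr3, L1cam, Dner and Nrcam. They were chosen by name from the 22180 genes that could be named on the arrays, with earlier results of these data known, and each had 1 row in the deposited table. Each of the 27 samples was a snap-frozen prostate tumour from a different transgene-positive F2 male. The cross was TRAMP, labelled C57BL/6-Tg(TRAMP)8247Ng/J, by PWK/PhJ, and the F2 males came from transgene-positive dames and transgene-negative sires. All 27 were transgene-positive by their labels, on a mixed background. No tumour-free or transgene-negative tissue was analysed here. Growth and spread of the tumours were assessed at 30 weeks, or earlier where a humane endpoint came first, and the labels give no age or genotype for a single animal. In TRAMP mice the SV40 early region is driven by the probasin promoter, which is active in prostate epithelium, and PWK/PhJ descends from wild mice (both from general knowledge). The labels place all tumours in 1 group, so the data show variation among tumours only. A tumour is called by its animal's number (P425, for example).

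Neural cell adhesion molecules are membrane proteins that hold neurons to each other and to glia. Some bind a copy of themselves on the facing cell, as the immunoglobulin-type proteins NCAM1, L1CAM and CADM1 can, and others bind a different partner across the synapse, as neuroligins and LRRTM proteins bind neurexins. NCAM1, also called CD56, is widely used to mark neuroendocrine tumours, and TRAMP mice are known to develop neuroendocrine prostate tumours. The deposited values are log2 expression levels from 1-colour arrays. They compare 1 gene between tumours, and levels of different genes are not compared.

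The arrays had medians between 5.67 and 5.82 log2, and 2 arrays correlated at r = 0.891 to 0.986. A neuroendocrine score averaged 15 genes, among them Syt1 and Stmn3 but none of the 9, after each gene had been centred on its mean. P471 (-3.06), P966 (-2.21), P425 (-2.10) and P1276 (-1.71) scored low, whereas the other 23 tumours ranged from -0.14 (P219) to 0.85 (P803). A luminal score over 13 epithelial genes, Epcam and Krt8 among them, was high in those 4 tumours (2.49 to 3.12) and in P219, P803, P1469 and P569 (2.03 to 2.22), and at most 0.52 in the other 19. P425 stood apart on a mitosis score of 20 genes (-1.86, against -0.40 in the next lowest tumour, P1276). P425 and P219 also had the highest levels of the smooth muscle genes Acta2 (11.43 and 11.57) and Myh11 (10.24 and 10.98). The next highest tumour for both genes, P235, was at 10.49 and 8.62.

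Promoter sequences are shown for Celsr3, Dner and Nlgn1, because the 250 bases before a start site of each held CAGCACC. These letters are part of the RE1 element bound by REST, a repressor that keeps neuronal genes silent in other cells. CAGCACC on either strand was found at 3 of the 11 start sites listed for 7 of the 9 genes, and at 5.73% of 32851 mouse promoter windows of the same length. GGACAG, letters found at the other end of that element, was found for Dner and Cntn1 (2 of 11 start sites, against 18.7% of all windows). In Dner a long stretch of bases separates the marked GGACAG from the marked CAGCACC, so these 2 marks are not read as 1 element. However, 2 bases after CAGCACC the Dner sequence reads ggacaa and that of Celsr3 gggcag, each 1 letter away from GGACAG. Nlgn1 reads ggttac at that place. The search took exact letters only, so these near matches are not marked, and whether they form the element was not tested. The E-box CAGCTG was at 0 of 11 start sites (13.0% of all windows) and TATAAA was at 1, a Cntn1 start (12.4%). Ncam1 and Cadm1 had no entry. The search was made after the levels had been seen, and a match is a description of the letters, not of binding. Sequences are from RefSeq, build GRCm38.p6, written 5′ to 3′ on the gene's strand and ending just before the start site. Capitals mark CAGCACC and GGACAG. Celsr3 lies at chr9:108825795-108826044 on the plus strand, Dner at chr1:84696222-84696471 on the minus strand, and the Nlgn1 start shown, 1 of 2, at chr3:26153987-26154236 on the minus strand.
Celsr3: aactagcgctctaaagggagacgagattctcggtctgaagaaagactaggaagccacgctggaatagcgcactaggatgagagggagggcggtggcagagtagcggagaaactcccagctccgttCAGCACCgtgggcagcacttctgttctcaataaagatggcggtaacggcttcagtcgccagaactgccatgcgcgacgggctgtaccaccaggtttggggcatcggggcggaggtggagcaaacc
Dner: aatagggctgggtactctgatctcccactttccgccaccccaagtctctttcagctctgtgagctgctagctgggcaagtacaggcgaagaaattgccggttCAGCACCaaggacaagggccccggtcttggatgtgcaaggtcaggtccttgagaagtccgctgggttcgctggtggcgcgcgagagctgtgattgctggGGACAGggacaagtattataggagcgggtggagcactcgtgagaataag
Nlgn1: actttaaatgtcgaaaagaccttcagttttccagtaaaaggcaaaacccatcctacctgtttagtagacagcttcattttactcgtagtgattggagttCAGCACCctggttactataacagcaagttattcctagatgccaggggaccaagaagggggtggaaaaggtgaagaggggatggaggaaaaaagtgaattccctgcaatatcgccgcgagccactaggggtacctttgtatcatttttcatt

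Most of the 9 genes varied widely between tumours, but not in the same tumours. Ncam1, Nlgn1 and Celsr3 were lowest in the 4 tumours of low neuroendocrine score. Cntn1 was low in those 4 and in 4 further tumours, and Lrrtm1 was highest in exactly these further 4. Nrcam was highest in 2 of the 4 tumours in which Ncam1 was lowest. Cadm1 and L1cam varied least. In all, 8 of the 9 genes ranged over more than 4-fold, as did 25.3% of all genes, and their median SD was 1.07 log2 against 0.30 for all genes. Because the genes were picked with these results known, those shares describe the choice and test nothing. The samples are whole tumours, in which fewer cells of a type and less RNA per cell cannot be told apart.

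**Figure D1:**
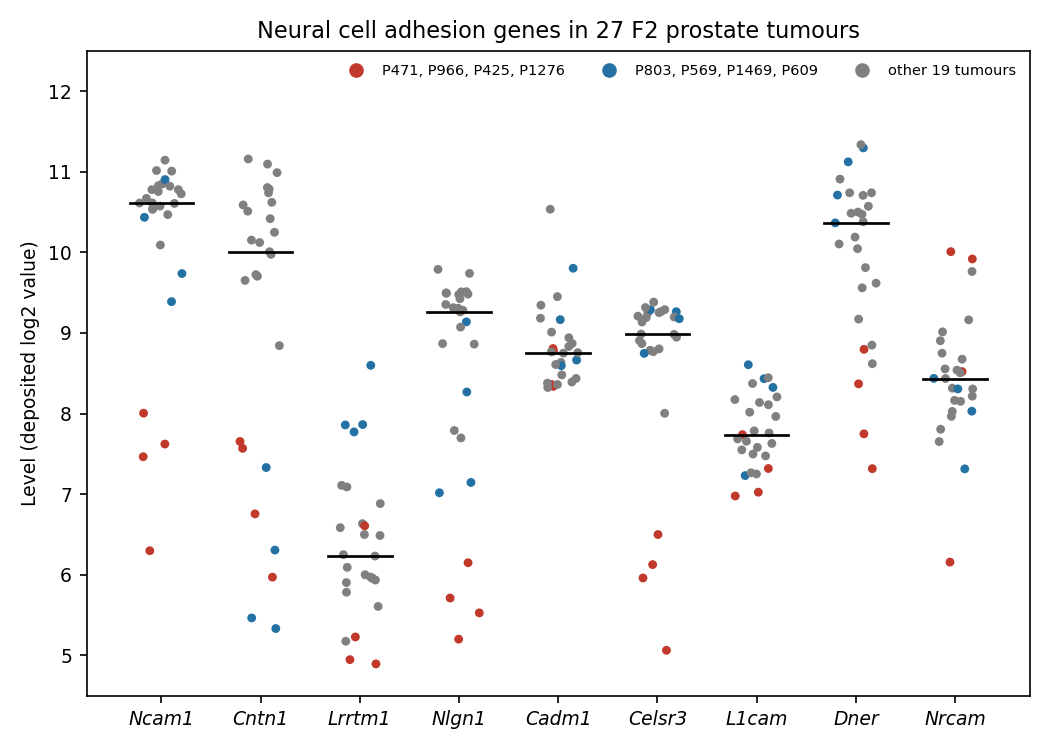
Level of each adhesion gene (deposited log2 value, vertical axis) in 27 tumours; each point is 1 tumour, bars are medians and 2 sets of 4 tumours are coloured. P471, P966, P425 and P1276 lie below all other tumours for Ncam1, Nlgn1 and Celsr3, and P803, P569, P1469 and P609 lie above all others for Lrrtm1.

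Ncam1, the homophilic immunoglobulin-type adhesion molecule, lay between 6.30 (P471) and 11.14 (P1394), with a median of 10.61 and an SD of 1.26 log2 (n = 27), a range of 28.8-fold. The lowest tumours were P471 (6.30), P966 (7.46), P425 (7.62) and P1276 (8.00). The other 23 tumours lay between 9.39 (P803) and 11.14, so the 4 did not overlap with the rest. A Gaussian mixture placed the same 4 tumours in a separate cluster of Ncam1 levels (Ashman's D 7.46, which sets the distance between cluster means against their spread).

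L1cam and Nrcam belong to the L1 family, which guides axons and anchors to the cytoskeleton through ankyrin. L1cam ranged over 3.09-fold, from 6.98 (P1276) to 8.61 (P609) with a median of 7.74 and an SD of 0.46, and 27.2% of all genes had a larger SD. P1276 and P425 (7.02) were its lowest tumours, but P966 was at 7.74, on the median. Nrcam lay between 6.16 (P425) and 10.01 (P471) with a median of 8.43 and an SD of 0.78, a range of 14.4-fold. Its highest levels, 10.01 in P471 and 9.92 in P966, fell in the tumours with the lowest Ncam1. P1276 was at 8.52, near the median, and P425 was lowest of all 27. The 4 tumours with low Ncam1 thus spanned the whole range of Nrcam.

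Cntn1 encodes contactin-1, a membrane-anchored axonal protein that pairs with CNTNAP1 and binds the phosphatase PTPRZ1. Of the 9 genes it varied most: from 5.33 (P569) to 11.16 (P1225), with a median of 10.01 and an SD of 1.89, a range of at least 56.7-fold since the lowest values were below the median of all values on the arrays (5.75). Only 45 of 22180 genes had a larger SD. It was low in the 4 tumours with low neuroendocrine scores (P966 at 5.97, P425 at 6.75, P1276 at 7.57 and P471 at 7.65). It was also low in 4 tumours with scores above 0: 7.33 in P803, 5.33 in P569, 5.46 in P1469 and 6.31 in P609. The remaining 19 tumours lay between 8.84 (P219) and 11.16 and did not overlap with these 8.

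Cadm1, an immunoglobulin-type molecule also called SynCAM1 that joins epithelial cells as well as synapses, lay between 8.32 (P217) and 10.53 (P474) with a median of 8.76. Its SD was 0.50, and 0.38 without P474; the second highest value was 9.80 in P609. The 4 tumours with low Ncam1 were at 8.34 to 8.81, within the range of the others.

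Nlgn1 encodes neuroligin-1, a postsynaptic partner of neurexins. It lay between 5.20 (P471) and 9.79 (P502) with a median of 9.26 and an SD of 1.42, a range of at least 24.0-fold. P471 (5.20), P425 (5.53), P966 (5.71) and P1276 (6.15) lay below the lowest of the other 23 tumours, P803 (7.02). P569 (7.15), P219 (7.70), P474 (7.79) and P1469 (8.27) came next, and P609 was at 9.14, among the 18 remaining tumours at 8.86 or above. Of the 4 further tumours with low Cntn1, P803 and P569 were in the low cluster of Nlgn1 levels, and P1469 and P609 were in the larger cluster.

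Lrrtm1, a leucine-rich repeat protein of the postsynaptic membrane, lay between 4.89 (P966) and 8.60 (P803) with a median of 6.23 and an SD of 0.92, a range of at least 13.0-fold. It was at 8.60 in P803, 7.86 in P1469, 7.86 in P609 and 7.77 in P569, above every other tumour; the next was P474 at 7.11. These are the 4 tumours of higher neuroendocrine score in which Cntn1 was low. The lowest levels were those of P966, P471 (4.95), P219 (5.18) and P425 (5.23), whereas P1276, at 6.61, was above the median. Lrrtm1 levels were not called as separate clusters.

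**Figure D2:**
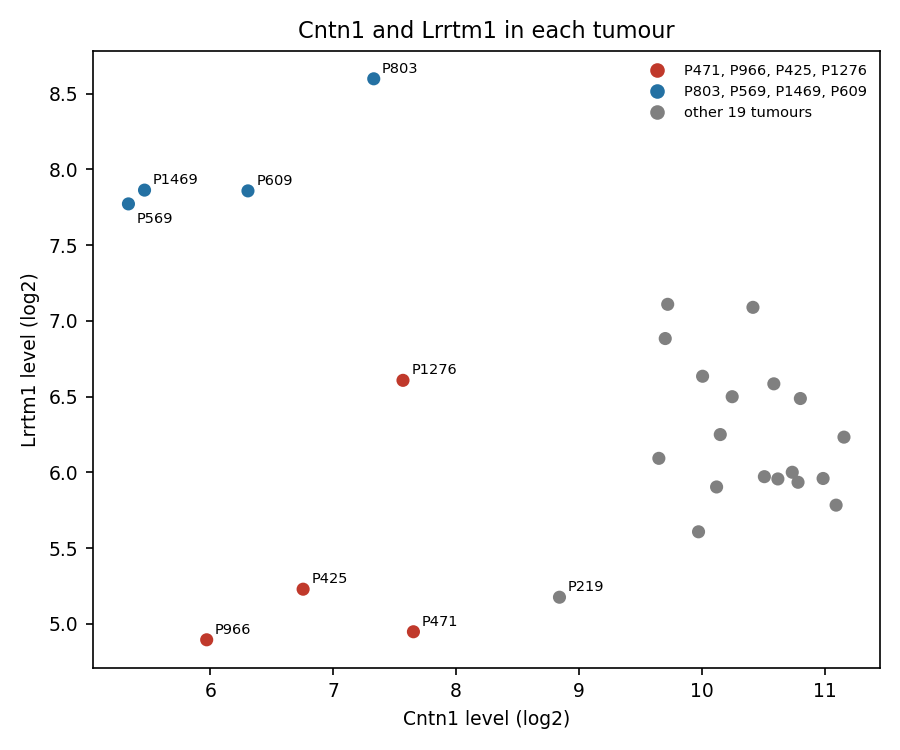
Cntn1 level (horizontal axis, log2) against Lrrtm1 level (vertical axis, log2) in each of 27 tumours. P803, P569, P1469 and P609 combine Cntn1 at 5.33 to 7.33 with Lrrtm1 at 7.77 to 8.60, and 19 tumours have Cntn1 at 8.84 or above with Lrrtm1 at 5.18 to 7.11.

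Celsr3, a cadherin-type receptor of planar cell polarity needed for axon tracts, lay between 5.06 (P471) and 9.38 (P757) with a median of 8.99 and an SD of 1.19, a range of at least 20.0-fold. The 4 tumours of low neuroendocrine score were at 5.06 (P471), 6.13 (P966), 5.96 (P425) and 6.50 (P1276). The other 23 lay between 8.00 (P219) and 9.38, and 22 of them within 8.75 to 9.38. Celsr3 therefore took a low or a high level with almost no tumour between them (Ashman's D 9.18).

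Dner, a neuronal EGF-repeat protein that can act as a ligand of Notch receptors, lay between 7.32 (P425) and 11.34 (P311) with a median of 10.37 and an SD of 1.07, a range of 16.2-fold. It was at 7.32 in P425, 7.75 in P1276, 8.37 in P471 and 8.80 in P966, but P502 (8.62), P474 (8.85) and P219 (9.17) were close to these, so the groups overlapped. P803 (11.12), P1469 (11.30), P569 (10.71) and P609 (10.37) were at or above the median of Dner.

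In sum over the 9 genes, 3 (Ncam1, Nlgn1 and Celsr3) had all 4 tumours of low neuroendocrine score below the other 23, and 0 had them all above. Over all 22180 genes 2.84% were entirely below and 1.60% entirely above. Of the 15 genes in the neuroendocrine score itself 11 lay below, which the score makes likely, and so did 4 of 12 neuron markers: Map2 (7.25 to 8.79, against 9.49 to 10.97), Elavl3 (5.30 to 7.32, against 9.13 to 10.46), Elavl4 and Tubb3. The tumours were sorted by a score from the same arrays, so these counts are a description with no test.

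Schwann cells of nerves can also carry Ncam1 and L1cam, and 11 nerve sheath markers were measured. For all 11 the 4 tumours of low neuroendocrine score overlapped with the other 23. Sox10, the transcription factor of Schwann cells, lay between 5.51 and 6.26 over the 27 tumours, a range of 1.67-fold, Mag between 4.05 and 5.15, Cdh19 between 2.91 and 4.10 and the myelin gene Mbp between 5.87 and 7.10. S100b was at 3.70 to 4.79 in 26 tumours and at 6.52 in P425. Pmp22 ranged from 6.25 (P803) to 9.26 (P912), Ngfr from 5.63 (P237) to 7.63 (P1276), Fabp7 from 4.41 to 6.42, Gfra3 from 5.62 to 6.61 and Ncmap from 5.01 to 5.92. Erbb3, which epithelium also expresses, varied most (36.7-fold) and was between 9.28 and 10.43 in the 4 tumours. The score over the 11 markers lay between 0.33 and 0.72 in those 4 and between -0.24 and 0.24 in the other 23. Genes were not scaled in it, and Erbb3 (SD 1.63) weighed most, with Pmp22 (SD 0.63) next. The score therefore follows Erbb3 in large part and is not a measure of nerve sheath alone. The part of nerve sheath in the levels of the 9 genes was not tested.

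Rest, whose product represses neuronal genes, was at 8.31 in P471, 7.85 in P966, 7.78 in P1276, 7.26 in P219 and 6.72 in P425. The other 22 tumours lay between 5.17 and 6.20. The 5 tumours with the highest Rest were thus the 5 with the lowest neuroendocrine scores, and P219 held the lowest Celsr3 of the 23 tumours in the larger cluster. Low Nlgn1 also occurred where Rest was low, in P803 (Rest 5.22, Nlgn1 7.02) and P569 (Rest 5.59, Nlgn1 7.15). Of its corepressor genes, Rcor1 had a mean of 10.01 with an SD of 0.19, and Rcor2 ranged from 6.09 (P425) to 8.48 (P509). The part of Rest in these levels, or of the smooth muscle RNA that was high in P219 and P425, was not tested.

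**Figure D3:**
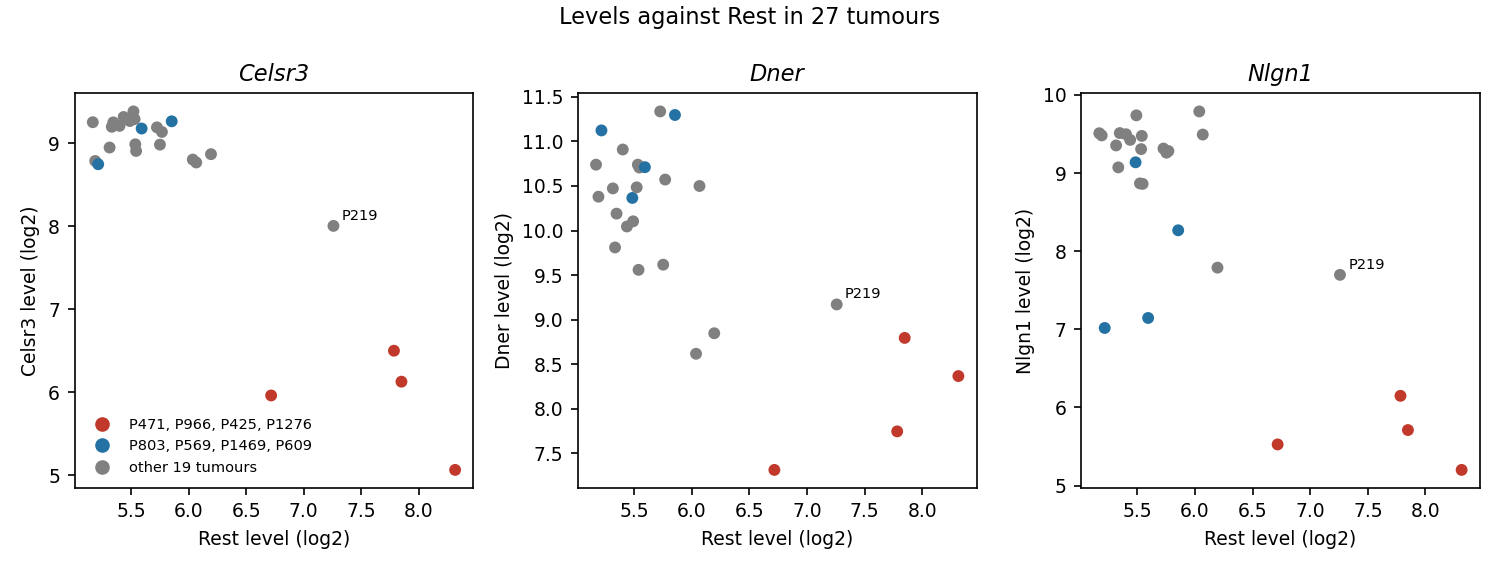
Rest level (horizontal axis, log2) against the levels of Celsr3, Dner and Nlgn1 (vertical axes, log2), 1 point per tumour, n = 27. The 4 tumours of low neuroendocrine score and P219 lie at Rest levels of 6.72 to 8.31, and all others at 5.17 to 6.20.

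Whether the genes followed cell division was tested by fitting all genes on the mitosis score (limma, Benjamini-Hochberg adjusted p under 0.05). Over 27 tumours 6 of the 9 genes rose, 0 fell and 3 did not pass. Of 22160 genes tested, 13.0% rose and 14.0% fell, and the median slope was 0.49 log2 per SD of the score for the 9 genes and -0.02 for all. Cntn1 rose by 1.04 ± 0.30 (SE, adjusted p = 0.01), Nlgn1 by 0.91 ± 0.21 (adjusted p = 0.0016), Ncam1 by 0.67 ± 0.20 (adjusted p = 0.014) and Celsr3 by 0.62 ± 0.19 (adjusted p = 0.016). Nrcam rose by 0.45 ± 0.12 (adjusted p = 0.0073) and Dner by 0.49 ± 0.18 (adjusted p = 0.042). L1cam (0.17 ± 0.08), Lrrtm1 (0.07 ± 0.17) and Cadm1 (-0.03 ± 0.10) did not pass. The slope of Cntn1 was among the results known when the genes were chosen. The rise was shared with other neural genes. Over 27 tumours 7 of the 15 neuroendocrine score genes rose and 0 fell (median slope 0.52). Of 12 neuron markers 4 rose and 0 fell (median slope 0.38). Markers of other cell types moved along the same score: 12 of 13 luminal epithelium genes and 6 of 7 smooth muscle genes fell over 27 tumours. Within the 23 tumours of higher neuroendocrine score 11 of 13 luminal genes fell and 0 of 7 smooth muscle genes passed in the limma fit (4 at an unadjusted p under 0.05). In those 23 tumours 3 of the 15 neuroendocrine genes and 3 of 12 neuron markers rose and 0 fell, against 7.27% of all genes rising. The part of these marker genes in the slopes of the adhesion genes was not tested.

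These slopes pooled tumours that form clusters, and 4 of the 6 calls rested on a single tumour. Without P425 the slopes of Ncam1 (0.47, adjusted p = 0.11), Celsr3 (0.35, adjusted p = 0.22), Nrcam (0.13, adjusted p = 0.49) and Dner (0.10, adjusted p = 0.75) no longer passed, and the count over all genes was 4155 in place of 5990. The call of Dner was also lost without P966, P619, P1276, P219, P233, P237, P1218 or P509 (adjusted p = 0.052 to 0.07). Within the 23 tumours of the larger neuroendocrine cluster, where 7.27% of genes rose and 6.30% fell, Cntn1 (1.04 ± 0.29, adjusted p = 0.018) and Nlgn1 (0.54 ± 0.12, adjusted p = 0.0065) rose. Ncam1 was at 0.19 ± 0.07 there (adjusted p = 0.086), Nrcam at 0.25 ± 0.10 (adjusted p = 0.088), Celsr3 at 0.05 ± 0.06, Dner at -0.19 ± 0.14 and Lrrtm1 at -0.35 ± 0.16 (adjusted p = 0.15). Cntn1 was itself split in this set: within the 19 tumours of its own larger cluster the slope was 0.11 ± 0.13 (adjusted p = 0.73), where 1.12% of all genes were called. Within the 21 tumours of the larger Nlgn1 cluster that of Nlgn1 was 0.32 ± 0.10 (adjusted p = 0.066), where 5.84% of all genes were called, 3.89% rising and 1.95% falling. Of the tumours with low Cntn1, P803, P1469, P609 and P569 had mitosis scores of -0.37, -0.28, -0.07 and -0.07.

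**Figure D4:**
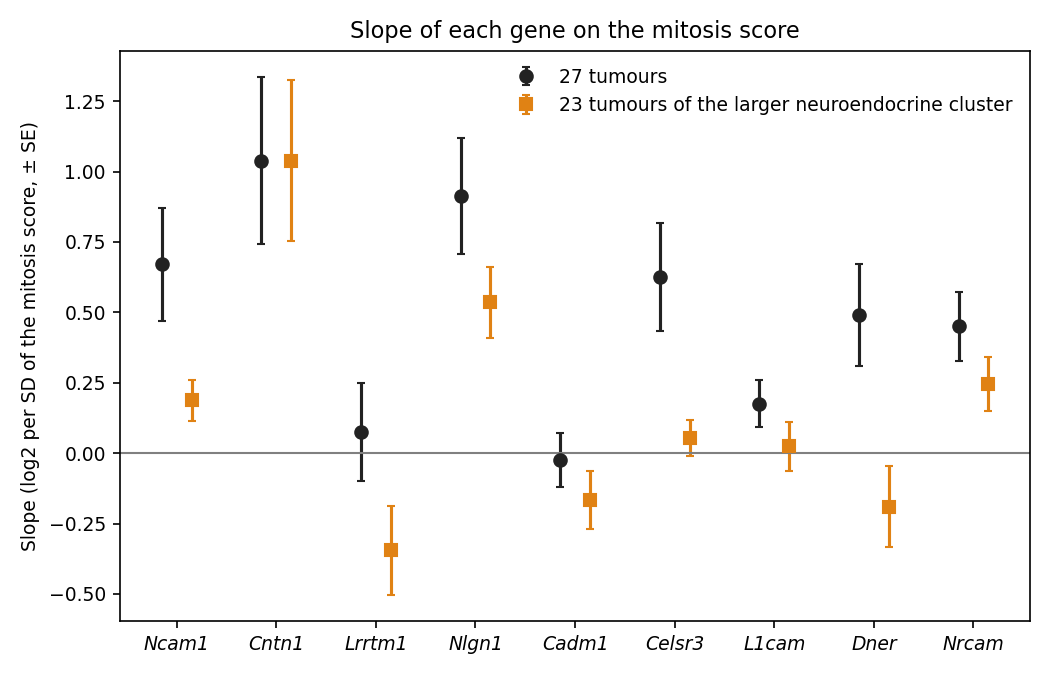
Slope of each adhesion gene on the mitosis score (vertical axis, log2 per SD of the score) with its SE, over 27 tumours and over the 23 tumours of the larger neuroendocrine cluster. Cntn1 has about the same slope in both sets (1.04), and Ncam1 goes from 0.67 to 0.19 and Celsr3 from 0.62 to 0.05.

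None of the 9 genes passed along the other 3 scores fitted with limma in the same way. Within the 23 tumours of higher neuroendocrine score 1 of the 9, Lrrtm1, had an unadjusted p under 0.05, as had 2134 of all 22165 genes tested. It had a slope of 0.54 ± 0.13 (adjusted p = 0.32) and Cntn1 one of -0.63 ± 0.33 (adjusted p = 0.57); of all genes 0.00451% were called. Within the 19 tumours of lower luminal score slopes lay between -0.29 (Dner) and 0.14 (Nlgn1). There 1 of 9, Dner, had an unadjusted p under 0.05, as had 1940 of all 22167 genes, with 0.771% of all genes called (0.735% rising and 0.0361% falling). Along the nerve sheath score in 22 tumours, Cntn1 had a slope of -1.05 ± 0.30 (adjusted p = 0.3) and Lrrtm1 of 0.33 ± 0.15 (adjusted p = 0.46), and 0.00451% of all genes were called. There 3 of 9 had an unadjusted p under 0.05, as had 2325 of all 22169 genes. So had 10 of 13 luminal genes, and all 13 had slopes above 0.

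Relatives and partners of the 9 genes were taken from lists of their families, of which 101 genes besides the 9 were measured. Over 27 tumours 21 of the 101 rose with the mitosis score, 8 fell and 72 did not pass; of all genes 13.0% rose and 14.0% fell. Within the 23 tumours 12 of the 101 rose and 12 fell, against 7.27% and 6.30% of all genes, and 16 of the 101 were called the same way in both fits. The same shares of all genes apply to the counts of each family below. The 4 tumours of low neuroendocrine score lay entirely below the other 23 for 5 of the 101 (Ncam2, Nlgn3, Lrfn3, Cadm3 and Cdh20) and entirely above for 2 (Nectin2 and Fzd6), against 2.84% and 1.60% of all genes. Among the family genes with the largest SD, several were high in the tumours in which members of the set were low.

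In the NCAM family, Ncam2 was at 4.57 to 5.28 in the 4 tumours of low neuroendocrine score and at 5.47 to 9.95 in the others. It was highest in P609 (9.95), then P235 (8.90), P803 (8.89), P233 (8.60) and P569 (8.56), against a median of 7.48. St8sia2, which makes the polysialic acid of NCAM1, rose with the mitosis score over 27 tumours (0.48 ± 0.11, adjusted p = 0.0015) and over 23 (0.49 ± 0.08, adjusted p = 0.00074). St8sia4, with the same activity, ranged from 5.10 to 7.99 and did not pass.

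Of the 14 contactin genes and partners 3 rose over 27 tumours and 0 fell, and 4 rose and 1 fell over 23. Ptprz1, the contactin-1 partner, ranged over at least 203-fold and was lowest in P1469 (4.23), then P966 (6.40) and P803 (6.56), all of low Cntn1; but in P569, where Cntn1 was lowest, it was at 9.43, above its median of 8.87. Its slope was 0.87 ± 0.30 (adjusted p = 0.032) over 27 tumours and 1.02 ± 0.29 (adjusted p = 0.023) over 23. Cntnap1, the paired membrane protein, rose by 0.36 ± 0.13 (adjusted p = 0.035) and by 0.35 ± 0.11 (adjusted p = 0.03). Cntn3, another contactin, was highest in 3 tumours with low Cntn1: 9.45 in P471, 9.10 in P966 and 8.34 in P1276, against a median of 5.63. It was at 4.97 in P425, at 4.56 to 5.08 in P803, P569, P1469 and P609, and at most 7.84 in the other tumours.

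In the L1 family Chl1, the close homologue of L1, was at 9.53 in P803, 9.62 in P569, 8.58 in P1469 and 7.81 in P609, where Lrrtm1 was highest, with a median of 6.44 over 27 tumours. P268 (9.93), P474 (9.01) and P1276 (8.56) were also high. P235 (8.25), P500 (8.00), P471 (8.00) and P219 (7.95) lay above P609 too, so the groups overlapped. The ankyrin gene Ank2 was highest in P474 (10.10). Of the 6 genes of this list Nrcam alone passed over 27 tumours, and Nfasc alone, falling (-0.29 ± 0.10, limma adjusted p just under the threshold), over 23.

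Of 12 neuroligins, neurexins and neurexin ligands 5 rose over 27 tumours (Nlgn1, Nlgn2, Nlgn3, Nrxn2 and Nrxn3) and 0 fell; over 23 tumours 4 rose (Nlgn1, Nlgn3, Nrxn2 and Cbln1). Nlgn3 was at 6.33 to 6.68 in the 4 tumours of low neuroendocrine score and at 7.81 to 9.39 in the others. Nrxn3, a presynaptic partner of both neuroligin-1 and LRRTM1, was lowest in P569 (5.13), P425 (5.48) and P803 (5.54), and its slope was 0.89 ± 0.21 (adjusted p = 0.0028). Of the 4 tumours with the highest Lrrtm1, Nrxn3 was thus low in P569 and P803, while P1469 lay nearer to its median of 8.60 and P609, at 9.71, lay above it. Nxph4, another neurexin ligand, ranged from 5.62 (P471) to 9.96 (P912).

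Lrrtm1 differed from its closest relatives. Lrrtm4 was at 4.92 in P803, 6.52 in P569 and 5.03 in P1469, against 7.16 to 9.22 in the 19 tumours of high Cntn1, and at 7.91 in P609. Lrrtm2 (4.98 to 7.28 in these 4, 6.26 to 9.20 in the 19) and Lrrtm3 (5.46 to 7.59, against 6.37 to 8.99) overlapped between the sets. Lrrtm2 (0.56 ± 0.19), Lrrtm3 (0.54 ± 0.20) and Lrrtm4 (0.88 ± 0.23) rose with the mitosis score over 27 tumours (adjusted p = 0.03, 0.039 and 0.0053), and Lrrtm4 also over 23. In this list of 25 synaptic leucine-rich repeat genes 8 rose and 1 fell over 27 tumours, and 2 rose and 2 fell over 23. Slitrk6 had the second largest SD there and was highest in P1218 (10.15).

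Of 8 CADM and nectin genes, Cadm3 and Nectin3 rose over 27 tumours and Nectin2, Nectin4 and Crtam fell. Over 23 tumours 1 rose (Nectin3) and 4 fell (Nectin1, Nectin2, Nectin4 and Crtam), and Cadm3 did not pass (0.37 ± 0.16, limma adjusted p = 0.13). Cadm3, the neuronal relative of Cadm1, was at 5.67 to 6.50 in the 4 tumours of low neuroendocrine score and at 6.81 to 10.20 in the others, whereas Cadm1 overlapped. Nectin2 (8.75 to 9.36, against 7.34 to 8.30) went the other way, and Nectin4, an epithelial adhesion gene, was highest in P425 (8.06). Of the 9 genes of planar polarity Celsr3 and Fzd3 rose over 27 tumours and Fzd6 fell, and over 23 tumours Fzd3 rose and Fzd6 fell. Fzd6 was at 8.58 to 9.04 in the 4 tumours and at 4.96 to 8.47 in the others, the reverse of Celsr3. Celsr1 was at 8.44 to 8.53 in P471, P966 and P1276, within its range elsewhere (6.52 to 9.93).

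**Figure D5:**
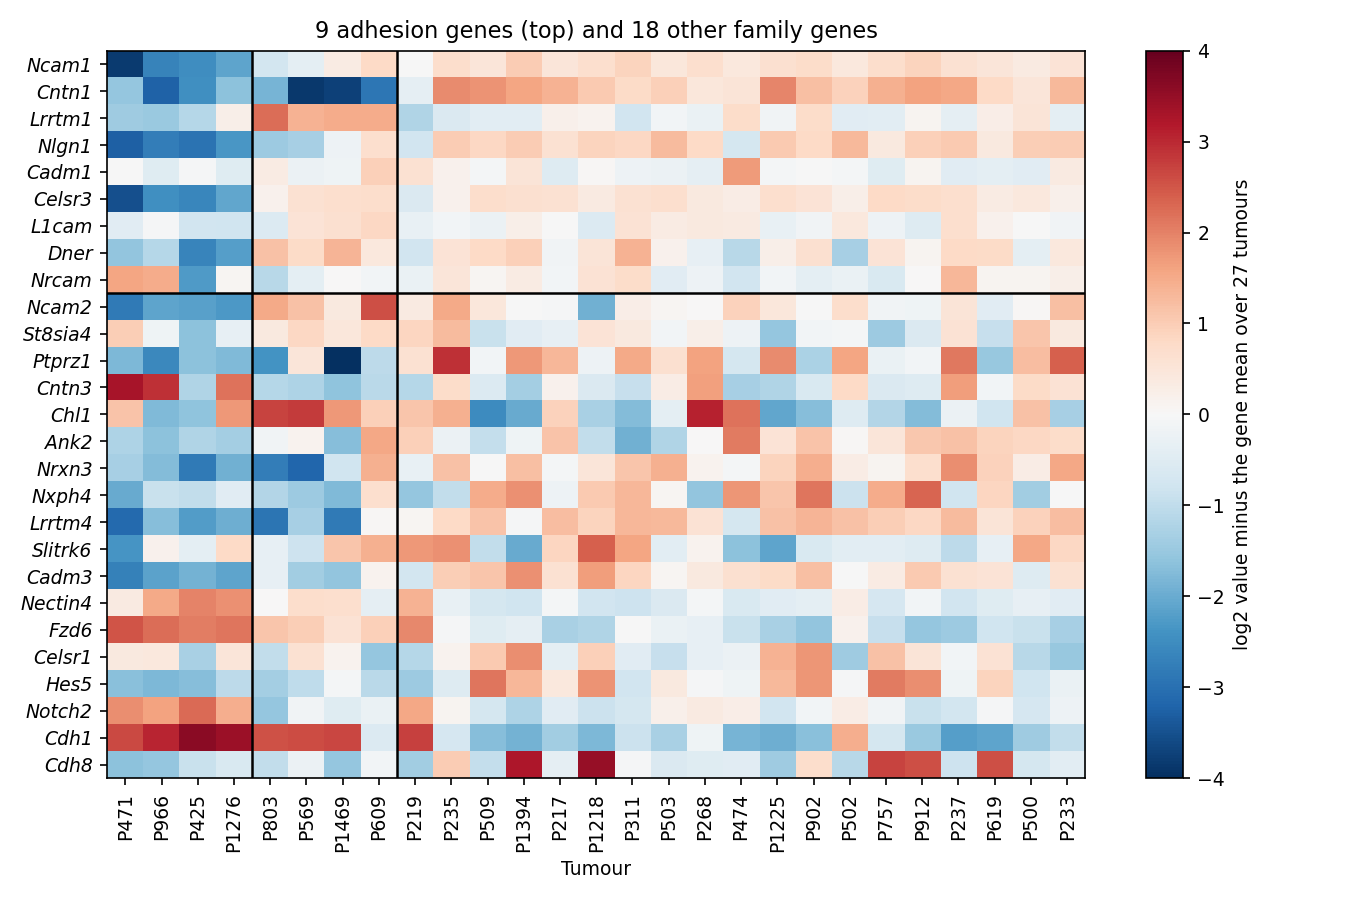
Log2 value minus the gene's mean over 27 tumours for the 9 adhesion genes (above the horizontal line) and for the 2 other genes with the largest SD in each of 9 families. Columns are tumours; vertical lines set off the 4 tumours of low neuroendocrine score and then P803, P569, P1469 and P609, where Cntn1 is low and Lrrtm1 high.

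In the list of DNER and Notch genes 2 of 17 rose over 27 tumours (Dner and the Notch target Hey1) and 2 fell (the receptors Notch2 and Notch3). Of all genes 13.0% rose and 14.0% fell. Over 23 tumours 1 rose (Jag1) and 1 fell (Notch3), against 7.27% and 6.30% of all genes. Notch2 was at 8.59 to 9.40 in the 4 tumours of low neuroendocrine score and at 8.70 in P219, with 5.61 to 7.51 in the other 22; P803, of high Dner (11.12), had the lowest value. Hes5, a Notch target, ranged from 6.17 (P966) to 10.10 (P509). Of 15 classical cadherins Cdh2 and Cdh4 rose over 27 tumours and Cdh1, the epithelial cadherin, fell. Over 23 tumours 0 rose and 2 fell (Cdh1 and Cdh3). The shares of all genes are those given for the Notch list. Cdh1 was at 10.46 to 10.58 in P803, P569 and P1469 but at 7.36 in P609, so P609 shared low Cntn1 and high Lrrtm1 with the 3 without their Cdh1 level. Cdh8 was highest in P1218 (10.50).

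The genes whose order over tumours was most like each adhesion gene were found by Spearman's rho, given as a description with no p. Cntn1, Ncam1, Nlgn1 and Celsr3 had separate clusters of levels, and likeness was taken within the larger cluster. For Ncam1 (23 tumours) the closest genes were Pcbp3 (rho 0.89), Thra (0.89), Begain (0.88), Grik4 (0.88) and Crmp1 (0.88), and all but Begain were also among its 5 closest over 27. For Cntn1 (19 tumours) they were Rorb (0.83), Chd7 (0.82), Tmem268, Kcna2 (0.78) and Dbp, of which Rorb and Kcna2 were also among the 5 closest over 27. The latter set further held Zbtb20, Lgi3 and Nmu. For Nlgn1 (21 tumours) they were Klhl13 (0.73), Fam135b, Tbx1, Adam22 (0.71) and Hmgb3, and for Celsr3 (23 tumours) Maz (0.89), Rnf26 (0.88), Hnrnpa0, Olfr845 and Sbk1 (0.80).

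For the 5 other genes likeness was taken over 27 tumours. Lrrtm1 was most like Hs3st4 (rho 0.75), Prkacb, Dynll2, Gemin6 and Pnmal2 (0.71). Hs3st4, a heparan sulfate sulfotransferase gene, was at 8.20 to 8.62 in P803, P569, P1469 and P609, at 7.32 in P500 and at most 6.18 in all others. L1cam was most like Mb21d2 (0.79) and Grm2 (0.75), Dner like Clcn4 (0.83), Tox (0.82) and the L1 family gene Nfasc (0.81), Nrcam like Pms1 (0.81) and Rab11a (0.81), and Cadm1 like Fam3c (0.76) and Dusp23 (0.70). Further genes of these sets were Selenom, Trio and Ajap1 for L1cam, Eid2b and Mtmr7 for Dner, Stx7, Dr1 and Zfp266 for Nrcam, and Ces2d-ps, Alpl and Spg20 for Cadm1. No adhesion gene of the 9 was among the 5 closest to another.

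Genes next to the 9 on the chromosome were compared by the order of genes in GRCm38.p6. Lrrtm1 lies inside Ctnna2, the neuronal catenin gene. In P803, P569, P1469 and P609, where Lrrtm1 was highest, Ctnna2 was at 7.71, 8.41, 7.54 and 8.43, within its range of 7.39 to 9.19 in the 19 tumours of high Cntn1. Pdzrn4, next to Cntn1, was lowest in 7 of the 8 tumours with low Cntn1, and in P609 it overlapped with the rest. It was at 4.06 to 5.58 in the 4 of low neuroendocrine score, at 6.07, 5.81, 5.28 and 7.24 in P803, P569, P1469 and P609, and at 6.91 to 8.76 in the other 19. The next gene on that side, Gxylt1, varied little (SD 0.27). On the other side lay Lrrk2 (SD 0.57) and Slc2a13 (SD 0.82). Ncam1 and Cadm1 lie on chromosome 9 with 18 measured genes between them, and their rho within 23 tumours was 0.12. The nearest measured genes of Ncam1 were Ttc12 (SD 0.34) and Ankk1 on one side and Plet1 (SD 1.27) and Pts on the other. Those of the remaining genes were Suclg1, Reg3b and Reg3d for Lrrtm1, Naaladl2, Rprl2, Spata16 and Ect2 for Nlgn1, and Bud13, Zpr1, Nxpe4 and Nxpe2 for Cadm1. They were Ip6k2, Nckipsd, Slc26a6 and Tmem89 for Celsr3, Pdzd4, Ssr4, Avpr2 and Arhgap4 for L1cam, Sphkap, Pid1, Trip12 and Fbxo36 for Dner, and Dnajb9, Pnpla8, Stxbp6 and Nova1 for Nrcam. Their SDs lay between 0.17 (Pnpla8) and 1.35 (Nova1). Over 27 tumours the highest rho between a gene and a neighbour were 0.83 (Cntn1 and Pdzrn4), 0.69 (Nlgn1 and Ect2) and 0.67 (Celsr3 and Slc26a6). The lowest was -0.44 (Ncam1 and Pts). These rho pool tumours that form clusters.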

How the data were processed

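Total RNA of 27 tumours was measured on 1-colour arrays. The authors deposited log2 values, in 41345 rows with a range of 1.68 to 14.5; the submitters' processing notes name Partek, and the sources used here give neither its version nor its steps. Values were used as deposited. Arrays hold no read depth, and their number limits the precision. Probes follow a reference sequence, and the effect of PWK/PhJ variants under them was not tested.

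Rows were named through the platform's table (23521 with 1 symbol), and of several rows the one highest on average stood for a gene. The members and lists were chosen with earlier results of these data known. Of 234 listed genes 223 were measured. A score was the mean of centred log2 values; separate clusters needed, by mclust 6.1.1, at least 3 tumours, Ashman's D above 2 and a BIC gain above 6. Fits used limma 3.58.1 in R 4.3.3 (lmFit, eBayes with a trend), score genes left out, tested on simulated data. Named were the 9 genes, the 5 most like each, 2 neighbours per side, 2 non-members of largest SD per family and the top markers; Rest, Hs3st4, the other Lrrtm genes, further family genes and single-tumour values were added after their values were seen. The labels give no batch.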

Additional observations from a re-analysis of the deposited data

How the results depend on the processing

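Without P425, P219 and P268 the SD of Nrcam went from 0.78 to 0.67 and that of Dner from 1.07 to 0.96, and without P474 that of Cadm1 went from 0.50 to 0.38. Counts of genes along the mitosis score (5990) were 3094 without the farthest tumours, P425 and P1276, 3007 within the larger neuroendocrine cluster, 248 and 1294 within the larger Cntn1 and Nlgn1 clusters, and 4155 (without P425) to 6438 leaving out 1 tumour. Along the neuroendocrine score (1) they were 3 after quantile normalization, 2 with each array centred, 0 with rows averaged, without P425, P219 and P268, with animal number, with a median score and without the 2 farthest, and 0 to 4 leaving out 1 tumour. Along the luminal score (171) they were 102 without dim genes, 0 without P502 and P268, and 2 (without P502) to 258 (without P235). Along the nerve sheath score (1) they were 0 after quantile normalization or centring, without P425, P219 and P268, with animal number, with a median score and without the 2 farthest, and 0 to 140 (without P803). Lrrtm1's slope on the mitosis score (0.07) became -0.32 without P425, P219 and P268, -0.22 without the 2 farthest, -0.22 (without P425) to 0.15 (without P803) leaving out 1 tumour, and -0.35 within the larger neuroendocrine cluster. Dner's (0.49) became -0.10 and -0.19 in the second and the last of these. The cause was not tested. Settings with the farthest tumours left out or within clusters were chosen after seeing the data. No paired analysis was possible because there is 1 group.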
